A study of Homo sapiens with 4 samples.

Results

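Zinc finger mRNAs whose gene symbol begins with ZNF and a digit were picked out by name from 2 tables of m7G peaks of U2OS cells, and the chromosome 19 members were set against the rest. Of the 4326 peaks of immunoprecipitated (IP) replicate 1, 61 lay on such mRNAs (49 genes), and of the 4862 peaks of IP replicate 2, 78 (59 genes). Together 76 ZNF genes had a peak, 22 on chromosome 19 and 54 elsewhere, of 4368 gene names in the tables. The members were chosen by symbol, with earlier results of these data known. Only mRNAs that passed the authors' peak call could appear among them.

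The study mapped N7-methylguanosine (m7G), the methylated guanine of the mRNA cap that has also been mapped inside mRNA. U2OS is an established human osteosarcoma cell line. The cells were untreated. Their poly(A) RNA was sequenced as 2 input and 2 anti-m7G IP libraries, and each IP table lists peaks with a position, an enrichment (the fold of IP over input) and the significance of that enrichment, all of them the authors' own values. Of 10 markers of bone-derived mesenchymal cells, 8 carried a shared peak, among them COL1A1, SPARC and VIM, against 0 of 6 haematopoietic, 0 of 5 epithelial and 0 of 4 hepatocyte markers; 1 epithelial and 1 hepatocyte marker had a peak in replicate 2 alone. With a shared peak on 10.5% of all protein-coding genes, zeros in lists this short say little. The tables hold no counts, so depth and expression are unknown. Whether the IP replicates were separate cultures is not in the labels, and the gap between them may be technical.

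C2H2 zinc finger proteins, most of them named ZNF, form the largest family of human transcription factors. Most encode tandem C2H2 zinc fingers, each of which reads a few bases of DNA, and many add a KRAB domain, which recruits the corepressor TRIM28 and through it the H3K9 methyltransferase SETDB1 to silence transposable elements. They multiplied by tandem duplication, and chromosome 19 holds their largest clusters. A minority are not classical repressors: ZNF598 is a ubiquitin ligase that marks collided ribosomes, ZNF451 is a SUMO ligase and ZNF326 joins RNA polymerase II to the splicing machinery.

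The cap is itself m7G, so members with a peak midpoint within 200 nt of a listed transcript start are shown by sequence. Each line gives the bases around a start listed for the gene in the RefSeq promoter table of GRCh38.p14, 5′ to 3′ on the gene's strand. The 70 bases before the start are in lower case and the 30 transcribed bases from the start onward are in capitals. Of the 26 ZNF genes with a peak shared by both replicates, 21 had an entry in that table.
ZNF598, chr16:2009792-2009891, minus strand: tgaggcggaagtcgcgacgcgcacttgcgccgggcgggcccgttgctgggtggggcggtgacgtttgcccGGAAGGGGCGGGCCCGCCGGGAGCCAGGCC
ZNF768, chr16:30526537-30526636, minus strand: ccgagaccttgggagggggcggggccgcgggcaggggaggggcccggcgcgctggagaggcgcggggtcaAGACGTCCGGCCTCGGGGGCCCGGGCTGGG
ZNF358, chr19:7516033-7516132, plus strand: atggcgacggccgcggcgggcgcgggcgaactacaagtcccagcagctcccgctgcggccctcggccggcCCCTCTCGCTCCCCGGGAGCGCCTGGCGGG
ZNF12, chr7:6706918-6707017, minus strand: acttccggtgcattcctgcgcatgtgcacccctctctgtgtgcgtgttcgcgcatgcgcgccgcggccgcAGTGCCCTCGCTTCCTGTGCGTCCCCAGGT
ZNF451, chr6:57090118-57090217, plus strand: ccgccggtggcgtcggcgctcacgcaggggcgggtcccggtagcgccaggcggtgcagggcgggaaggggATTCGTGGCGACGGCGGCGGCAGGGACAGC
All 5 windows were rich in G and C, from 68% in ZNF12 to 83% in ZNF768. The ZNF768 peak began 23 nt before its listed start and covered all of the 50 transcribed bases that the table gives. The others began after the start, by 15 nt in ZNF358, 30 nt in ZNF598, 42 nt in ZNF12 and 52 nt in ZNF451, in both replicates alike. Of those 50 bases the peaks covered 35 in ZNF358, 20 in ZNF598, 8 in ZNF12 and 0 in ZNF451. The capitals printed for ZNF598, ZNF12 and ZNF451 thus hold no base of the peak. The sequence GANGAN, searched on both strands of those 50 bases, was found in none of the 5. With 5 windows, and much of them outside the peaks, that absence says nothing about the m7G sites. It was present in 18.7% of the same windows of protein-coding genes on the transcribed strand and in 15.8% on the other, and in 12.6% and 19% of those of ZNF genes.

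A peak was called shared when it had 1 bp or more in common with a same-strand peak of the other replicate, and 35 ZNF peaks on 26 genes were shared. That was 57.4% of the 61 ZNF peaks of replicate 1 (Wilson 95% interval 44.9 to 69.0), beside 62.6% of all peaks. In replicate 2 it was 44.9% of 78 (34.3 to 55.9), beside 55.9% of all peaks. These and the other intervals cover counting error only, and peaks of a gene and genes of a cluster are not independent. The share in replicate 1 was close to the background, and the replicate 2 interval ended at the background value.

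The strongest shared peak by the lower of both folds lay on ZNF316, chromosome 7 from 6642452 to 6643848 in replicate 1 (GRCh38), plus strand, in 3 blocks. It had a fold of 19.7 in replicate 1 and 36 in replicate 2. ZNF205 followed, with 23.1 and 18.0 at chromosome 16 from 3120309 to 3120517. ZNF428 had 16.4 and 16.3, and ZNF787 had 13.6 and 18.7. These last peaks were also the most significant of the family, with log10 p of -42 and -55.5 in ZNF428 and -52.3 and -80.3 in ZNF787. ZNF358 had 11.7 and 19.2, with log10 p of -13.6 and -48.6. ZNF205 was high in fold but weak in significance, with log10 p of -6.89 and -6.41.

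The rest of the 10 highest genes followed in the same order. ZNF598, the ribosome collision sensor, had 13.2 and 9.0. ZNF148, which binds GC-rich promoter elements, had 8.41 and 18.0. ZNF639 had 11.1 and 7.89, and ZNF362 had 15.8 and 7.74. ZNF74, a KRAB protein, had 9.25 and 7.33. All 10 of these genes were above 7-fold in both replicates. At the low end stood the weaker ZNF787 peak, with 1.88 and 4.35. ZNF703, a corepressor amplified in breast cancer, had 2.48 and 4.76 at its first shared peak and 2.29 and 2.11 at another. The first rests on the minimum overlap of 1 bp: the replicate 2 peak ended at 37695841, where the replicate 1 peak began. Those folds thus belong to adjoining regions. ZNF219, a partner of SOX9 in chondrocytes, had 3.23 and 3.90, and 2.03 and 2.68.

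**Figure D1:**
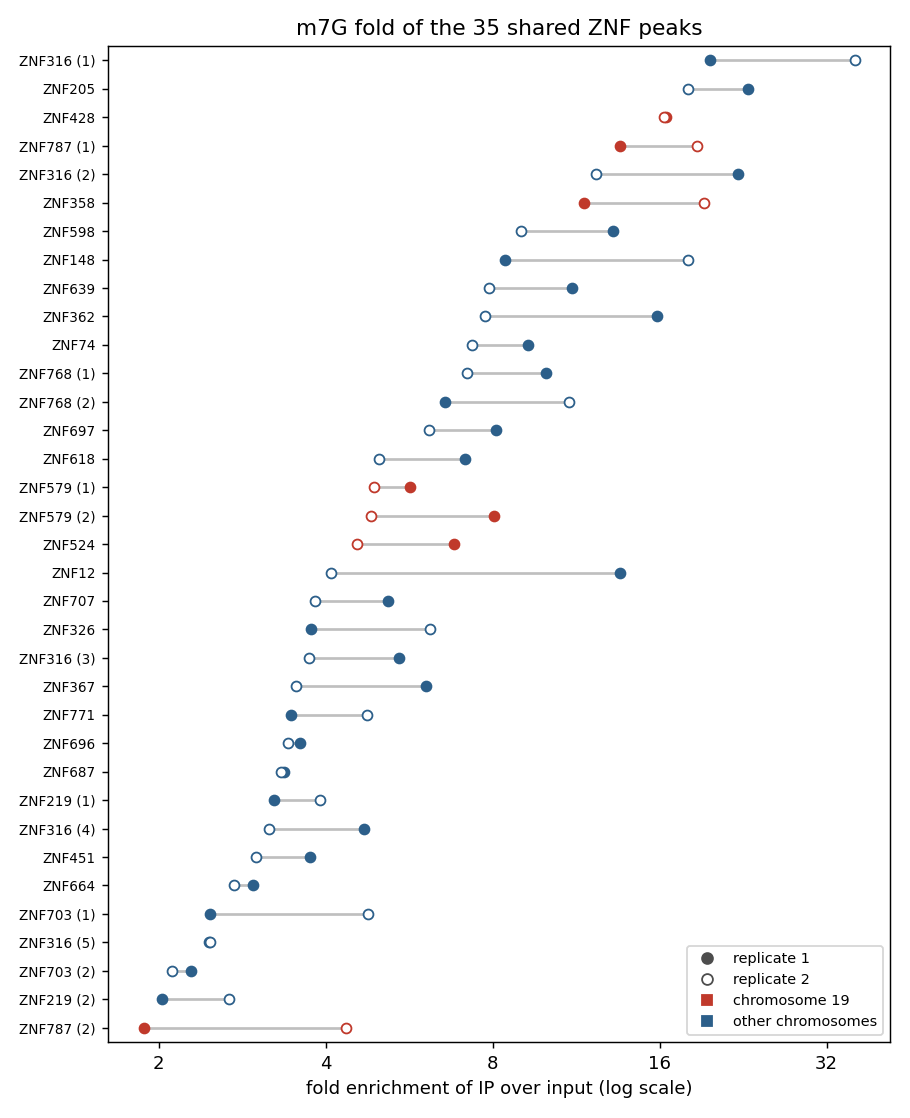
Fold enrichment of IP over input (log scale) for each of the 35 shared ZNF peaks, ordered by the lower fold of both replicates, with filled points for replicate 1, open points for replicate 2 and red for chromosome 19. Genes with several shared peaks are numbered. The folds run from 1.88 to 36, and ZNF12 shows the widest gap between replicates.

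Across the 35 peaks the median fold was 6.57 in replicate 1 (range 1.88 to 23.1) and 4.83 in replicate 2 (2.11 to 36). All 2639 shared peaks had medians of 4.14 and 3.81. In both replicates 19 of the 35 were enriched 4-fold or more (54.3%, Wilson 38.2 to 69.5), as were 42.9% of all shared peaks, which lies inside that interval. Replicates were further apart on the ZNF peaks, with a median gap of a factor of 1.41 against 1.23 for all shared peaks.

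The replicates came closest on the fifth-ranked peak of ZNF316 (2.46 and 2.47), on ZNF428 and on ZNF687 (3.36 and 3.33), a gene mutated in severe Paget disease of bone. They were furthest apart on ZNF12, a KRAB protein, with 13.6 and 4.09. The weaker ZNF787 peak and ZNF148 came next. In 23 of the 35 peaks (65.7%) replicate 1 had the higher fold, as it did in 55.5% of all shared peaks.

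Several members carried more than 1 shared peak. ZNF316 had 5, and only 3 of the 2104 genes with any shared peak had more. Its peaks lay in the body of the gene, with midpoints 5359, 15114, 15892, 17581 and 18883 nt from the annotated start of a span of 20962 nt. The folds along them were 19.7 and 36, 5.42 and 3.73, 4.70 and 3.16, 2.46 and 2.47, and 22.2 and 12.3. The peaks nearest to each end of that series were thus the high ones in both replicates. ZNF219, ZNF579, ZNF703, ZNF768 and ZNF787 had 2 shared peaks each, and the other 20 genes had 1.

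**Figure D2:**
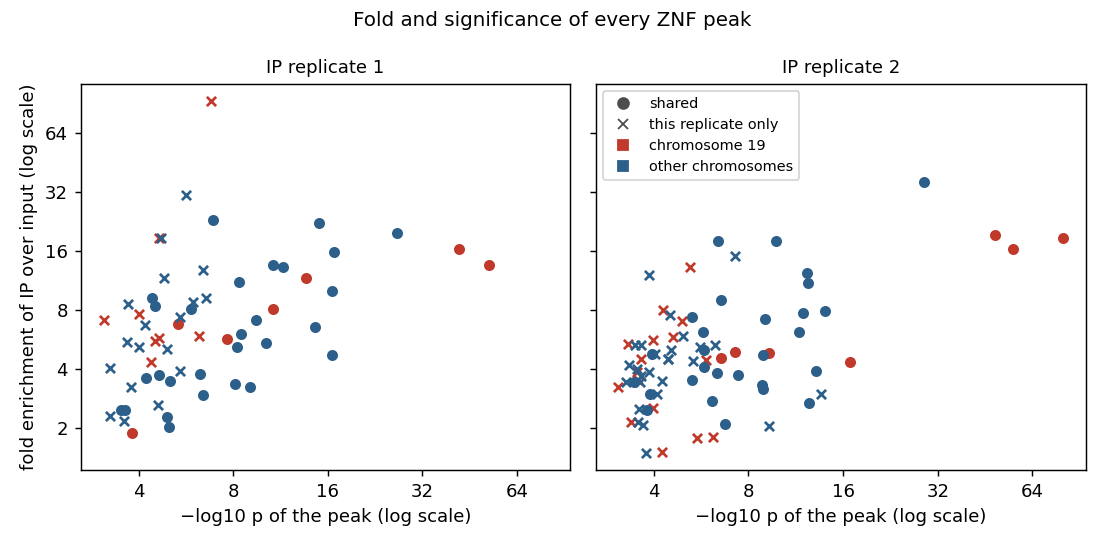
Fold (vertical, log scale) against significance as the negative log10 p (horizontal, log scale) of every ZNF peak in replicate 1 (left) and replicate 2 (right), with points for shared peaks, crosses for peaks of that replicate only and red for chromosome 19. The crosses crowd at low significance, and their folds run from 2.17 to 92.5 in replicate 1 and from 1.5 to 15.0 in replicate 2, where the highest shared peak is at 36.

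Peaks found in a single replicate numbered 26 in replicate 1 and 43 in replicate 2. Their median fold was 6.30 in replicate 1, against 6.57 for the shared ZNF peaks, and 4.17 in replicate 2, against 4.83. Their median log10 p was -4.62 and -4.02, against -8.22 and -8.84 for the shared. Of the ZNF peaks among the most significant 20% of each table, 10 of 10 in replicate 1 and 10 of 11 in replicate 2 were shared. Among the least significant 20% it was 3 of 12 and 4 of 27. Of all peaks, 98.8% and 93.2% of the most significant 20% and 28.7% and 23.4% of the least significant were shared, so sharing moved with significance throughout the tables. By definition 20.0% of all peaks fall in that weakest class. It held 19.7% of the ZNF peaks in replicate 1 and 34.6% in replicate 2, so the excess was in replicate 2 alone. Fold alone therefore did not mark the ZNF peaks that recurred.

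The highest fold of the whole family was of this kind. ZNF507 on chromosome 19 (32345608 to 32345758) had 92.5 in replicate 1, with a log10 p of -6.78 and its midpoint 73 nt from the gene start, and no peak in replicate 2. ZNF669 had 30.8 and ZNF444, which carries a SCAN domain, 18.5 in replicate 1, level with ZNF704. In replicate 2 alone the highest were ZNF644, a partner of the H3K9 methyltransferases G9a and GLP, at 15.0, ZNF320 at 13.3 and ZNF189 at 12.0. ZNF644 and ZNF189 had no peak in replicate 1, nor had ZNF320. The most significant peak of a single replicate was that of ZNF384 in replicate 2, with a log10 p of -13.6 and a fold of 2.99.

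A further 6 genes had peaks in both tables but at different places: ZNF276, ZNF385A, ZNF394, ZNF444, ZNF740 and ZNF865. In ZNF385A, whose product works with p53, they were neighbours, 59 nt apart, with folds of 2.17 and 2.06. In ZNF740 the gap was 508 nt (3.93 and 4.41), and in ZNF865 1139 nt to the nearest (5.55 and 7.0). In ZNF276 it was 19519 nt, with the replicate 1 peak at a listed start and the replicate 2 peak 255 nt from the gene end, where the span of FANCA on the other strand also lies. ZNF444 had its replicate 1 peak 13971 nt from the nearest of its replicate 2 peaks. The remaining 17 genes in replicate 1 alone and 27 in replicate 2 alone included ZNF346, which binds double-stranded RNA (9.25 in replicate 1), ZNF185, a LIM domain protein of the actin cytoskeleton (2.61 in replicate 1), and ZNF207, a spindle assembly factor (2.08 in replicate 2).

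Along the gene, shared ZNF peaks were placed by the midpoint of the bases that both replicates had in common. Within 200 nt of the start of the annotated span lay 5 of 35 (14.3%, Wilson 6.26 to 29.4), against 23.7% of all shared peaks. These were ZNF598 (120 nt), ZNF148 (75 nt), ZNF12 (147 nt), ZNF451 (82 nt, 3.75- and 3.0-fold) and the higher peak of ZNF703 (59 nt). The replicate peaks of that ZNF703 pair overlapped by the minimum only, and with 50% reciprocal overlap 4 peaks were at the start. Counting every start listed in the promoter table added ZNF768 (66 nt) and ZNF358 (104 nt), which made 7 (20.0%, 10.0 to 35.9) against 26.6% of all. The span of ZNF768 begins 5977 nt before that peak and the span of ZNF358 2327 nt before its own, so both would count as internal by the gene span. The sequences printed above are those of 5 of the 7, without ZNF148 and ZNF703. Both background shares lay inside the intervals.

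The 7 peaks at a listed start had median folds of 10.0 and 7.20, against 5.99 and 5.24 for all shared peaks at a start. The other ZNF peaks had 6.82 and 7.74 near the gene end and 5.42 and 4.74 elsewhere. With 7 peaks, and folds there from 2.48 in ZNF703 up to 19.2 in ZNF358, the ranges of the places overlapped.

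**Figure D3:**
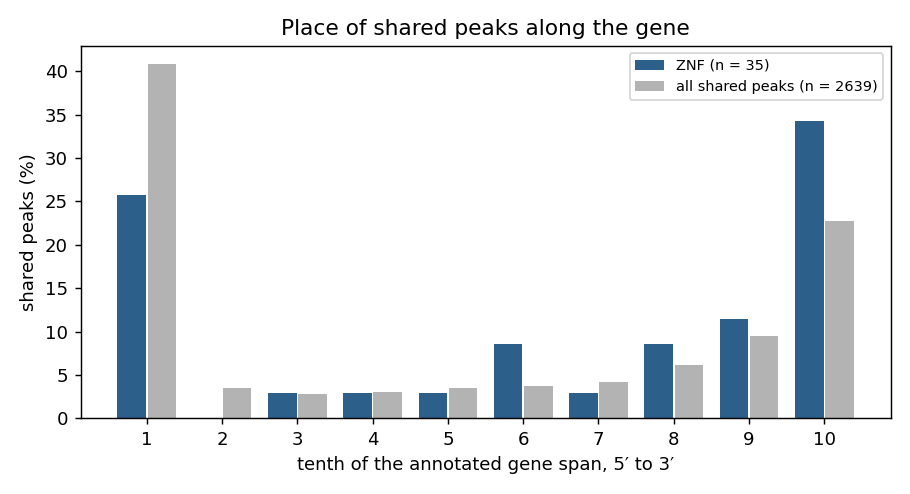
Share of shared peaks (%) in each of 10 equal parts of the annotated gene span, 5′ to 3′, for the 35 ZNF peaks and all 2639 shared peaks. ZNF peaks are most frequent in the last 10% of the span (34.3%), all shared peaks in the first 10% (40.9%). No intervals are drawn, and each part holds few ZNF peaks.

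Of the 35, 9 lay less than 1000 nt from where the gene ends (25.7%, Wilson 14.2 to 42.1), against 15.5% of all shared peaks. The strongest of them were ZNF205 (119 nt from the end), ZNF428 (445 nt), ZNF787 (844 nt) and ZNF362 (910 nt). In the last 10% of the span lay 12 (34.3%) against 22.7% of all, and in the first 10% lay 9 (25.7%, Wilson 14.2 to 42.1) against 40.9%. The backgrounds of 15.5% near the end and 40.9% in the first 10% lie inside those intervals. For the last 10% no interval was computed. Of all shared peaks on chromosome 19, 26.2% lay near the end, 29.6% in the last 10% and 27.1% in the first 10%. On the other chromosomes these shares were 14.0%, 21.8% and 42.8% of all shared peaks and 21.4%, 32.1% and 32.1% of 28 ZNF peaks. The 7 ZNF peaks of chromosome 19 gave 42.9%, 42.9% and 0%. A lean of the ZNF peaks toward the gene end was not shown. The midpoint of the ZNF peaks stood at a median of 72.1% of the span. Distances are genomic and include introns, and exon or coding annotation was not used here. Most ZNF peaks were a single block: 7 of 35 had more than 1 block in both replicates (20.0%, 10.0 to 35.9), against 31.0% of all shared peaks. Their median length was 181 nt in replicate 1 and 210 nt in replicate 2, against 181 and 206 nt for all.

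Coverage of the family was then counted against the gene table. Of 517 annotated protein-coding ZNF genes, 26 had a shared peak (5.03%, Wilson 3.45 to 7.27), against 10.5% of 20052 protein-coding genes. A peak in either replicate was on 76 (14.7%, 11.9 to 18.0), against 21.6%. The remaining 441 had none. On chromosome 19 a shared peak was on 5 of 250 ZNF genes (2.00%, Wilson 0.857 to 4.60), and elsewhere on 21 of 267 (7.87%, 5.20 to 11.7). The difference was -5.87 percentage points (Newcombe 95% interval -9.89 to -2.15). The other protein-coding genes of chromosome 19 stood the other way round, with a shared peak on 229 of 1201 (19.1%, 16.9 to 21.4) against 1846 of 18334 elsewhere (10.1%, 9.64 to 10.5).

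**Figure D4:**
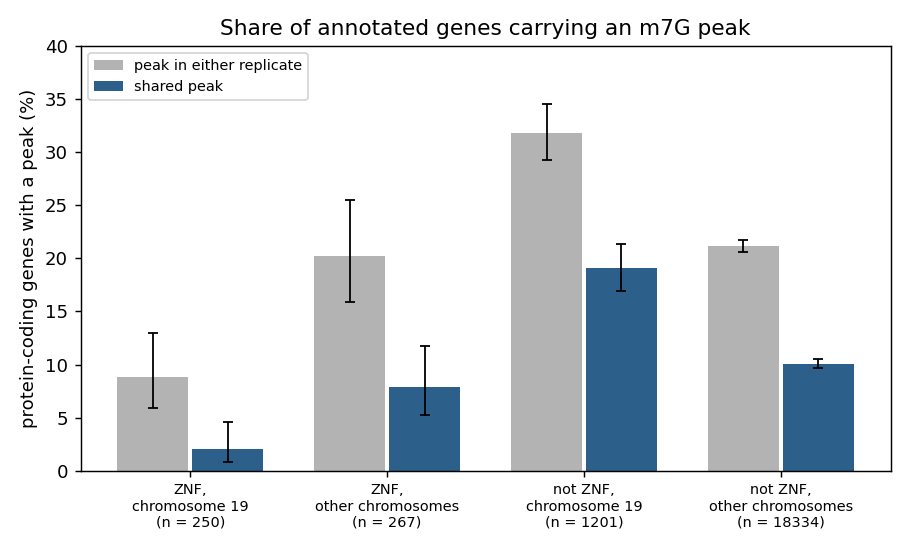
Percentage of annotated protein-coding genes with a peak in either replicate (grey) and with a shared peak (blue), for ZNF genes and all other genes on chromosome 19 and elsewhere, with Wilson 95% intervals as error bars. Chromosome 19 has the lowest share among ZNF genes (2.00%) and the highest among other genes (19.1%).

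Each replicate alone gave the same order. In replicate 1, 13 chromosome 19 ZNF genes and 36 others had a peak, and in replicate 2, 16 and 43. Expression was not measured in these tables, and its part in the low coverage of the chromosome 19 genes was not tested. Nor is it stated how reads that match several near-identical ZNF genes were handled. Of the chromosome 19 ZNF peaks, 7 of 15 were shared in replicate 1 (46.7%, Wilson 24.8 to 69.9) and 7 of 23 in replicate 2 (30.4%, 15.6 to 50.9). Elsewhere it was 28 of 46 (60.9%, 46.5 to 73.6) and 28 of 55 (50.9%, 38.1 to 63.6), so the intervals overlap and no difference was shown. All peaks of chromosome 19 were shared at 66.1% and 63.1%.

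The 5 chromosome 19 genes with a shared peak were ZNF358, ZNF428, ZNF524, ZNF579 and ZNF787. ZNF579 had 8.05 and 4.83 at one peak and 5.67 and 4.88 at another, from 55578416 to 55579187 on the minus strand. ZNF524, from 55602870 to 55603049 on the plus strand, had 6.82 and 4.55. ZNF787 lay in the same stretch of the long arm, its stronger peak from 56087809 to 56088551 on the minus strand. ZNF428 lay from 43607432 to 43607877 on the minus strand. By their best peak all 5 reached at least 4-fold in both replicates, as did 11 of the 21 genes elsewhere. By peak it was 6 of 7 (85.7%, Wilson 48.7 to 97.4) and 13 of 28 (46.4%, 29.5 to 64.2), and the intervals overlap. Of all shared peaks it was 44.8% on chromosome 19 and 42.9% in total. A difference between the chromosome groups was not tested.

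In replicate 1 the chromosome 19 peaks had a median fold of 8.05 (n = 7, range 1.88 to 16.4) and the other ZNF peaks 5.74 (n = 28, 2.03 to 23.1). In replicate 2 the medians were 4.88 (4.35 to 19.2) and 4.75 (2.11 to 36). The log2 difference of the medians, chromosome 19 minus other, was 0.49 in replicate 1 and 0.04 in replicate 2. The ranges overlap in both replicates, so no difference in fold was shown.

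The members were also described by how many ZNF genes lie close by, counted as other protein-coding ZNF genes with midpoints within 250 kb. On chromosome 19 the 5 genes with a shared peak had a median of 3 such neighbours (range 0 to 6), and the 228 genes with no peak had 8 (0 to 20). The 17 with a peak in a single replicate or at different places also had a median of 8. Over the whole family a shared peak was on 15 of 146 ZNF genes with no ZNF neighbour (10.3%, Wilson 6.33 to 16.3). With 6 or more neighbours it was on 4 of 199 (2.01%, 0.784 to 5.05). The share among ZNF genes with no ZNF neighbour was near the 10.5% of all protein-coding genes. On chromosome 19 alone the shares were 1 of 12 and 2 of 173, and elsewhere 14 of 134 and 2 of 26, too few to separate neighbours from chromosome. A peak in either replicate was on 35 of 146 (24.0%) with no neighbour and 23 of 199 (11.6%) with 6 or more, but on 5 of 89 (5.62%) with 3 to 5. On chromosome 19 it was on 2 of 12 with no neighbour, 1 of 45 with 3 to 5 and 16 of 173 with 6 or more. Elsewhere it was on 33 of 134 (24.6%) with no neighbour and 7 of 26 (26.9%) with 6 or more. By that count the order did not hold there.

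**Figure D5:**
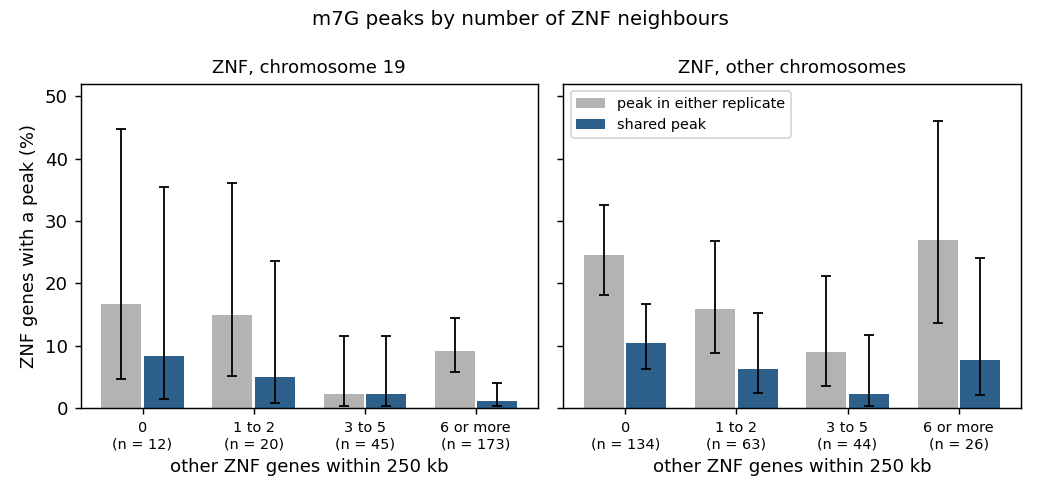
Percentage of ZNF genes with a peak in either replicate (grey) and with a shared peak (blue) by number of other ZNF genes within 250 kb, on chromosome 19 (left) and elsewhere (right), with Wilson 95% intervals as error bars. The intervals are wide wherever few genes fall in a class, and on chromosome 19 173 of 250 genes have 6 or more neighbours.

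Counts on the other chromosomes were small and were not compared. Chromosome 16 had 4 of 30 ZNF genes with a shared peak (ZNF205, ZNF598, ZNF768 and ZNF771), chromosome 1 had 4 of 21 (ZNF326, ZNF362, ZNF687 and ZNF697), and chromosome 7 had 2 of 35 (ZNF12 and ZNF316). Chromosome 10 had 0 of 17, with no peak in either replicate. Among the remaining members, ZNF326 had 3.77 and 6.17, ZNF697 8.10 and 6.15, and ZNF771 3.47 and 4.74. ZNF618, a partner of the 5-hydroxymethylcytosine reader UHRF2, had 7.12 and 5.0. ZNF367 (6.06 and 3.53), ZNF664 (2.96 and 2.74), ZNF696 (3.60 and 3.42) and ZNF707 (5.19 and 3.83) complete the list. The ZNF664 peak also lies in the span of the read-through gene ZNF664-RFLNA.

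Related zinc finger families and the KRAB corepressors were counted in the same way, beside the 10.5% of all protein-coding genes, which lies inside the ZBTB and ZC3H intervals and that of the KRAB corepressors (10.2 to 49.5). ZBTB genes, whose zinc fingers follow a BTB domain, had a shared peak on 7 of 42 (16.7%, Wilson 8.32 to 30.6), with ZBTB20 at 30.5 and 40 and ZBTB47 at 23.9 and 36.7. ZFP genes, picked by symbol and not by finger type, had 2 of 21, ZFP91 at 26.4 and 25 and ZFP36L1 at 1.29 and 1.54. ZSCAN genes had 0 of 21 (upper Wilson bound 15.5%) and ZKSCAN genes 0 of 7 (35.4%), though 4 and 1 of them had a peak in a single replicate or at different places. PRDM genes had 1 of 15, PRDM4 at 9.25 and 11.2. The CCCH-type ZC3H genes, which bind RNA, had 4 of 18 (22.2%, 9.0 to 45.2), led by ZC3H18 at 6.17 and 7.07. Of 16 KRAB corepressor genes 4 had a shared peak: CHD3 (58.0 and 64.4), TRIM28 (4.79 and 3.12), HDAC1 (1.78 and 2.41) and CBX1 (1.54 and 1.61). SETDB1 was not among them. A peak in either replicate was on 11 of the 16 (68.8%), beside 21.6% of all protein-coding genes. The ZNF interval (3.45 to 7.27) lay below that of ZBTB and ZC3H genes and overlapped those of the ZFP, ZSCAN, ZKSCAN and PRDM genes, whose lists are short.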

How the data were processed

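Peaks of 2 anti-m7G IP libraries of U2OS cells were used; the 2 input libraries enter only through the authors' peak calls. Per the submitters' processing notes STAR and GRCh38 were used; the peak caller is not given in the sources here. For each peak the deposited tables hold a p-value, the log10 of it and of the false discovery rate (each treated as a score) and an enrichment fold of IP over input, which is a ratio on a linear scale, per the file headers. The authors' scaling of the fold is unknown. The largest false discovery rate listed was 0.0490 in replicate 1 and 0.0479 in replicate 2, so weaker regions are not seen.

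All 61 and 78 members were matched by symbol, within 2000 nt, to RefSeq genes of GRCh38.p14. Blocks were overlapped on the same strand and mutually best overlaps were paired. Starts are those of the gene span or, where said, of the RefSeq promoter table. No test across genes was run: shares have Wilson 95% intervals. The overlap search was tried on a simulated copy of replicate 1 with small shifts. Its unshared peaks were moved far away, so pairs that barely overlap or barely miss were not covered. The members, lists and rules for named genes were chosen with earlier results of these data known. Named are the 10 ZNF genes highest by the lower fold, the 5 highest on chromosome 19 and elsewhere, those with 2 or more shared peaks or a peak at the start, the highest in each replicate alone, the largest and smallest gaps, the most significant, and up to 4 of each related list; other members, such as ZNF384, ZNF385A and ZNF618, were chosen after their values were seen. The neighbour count, the listed starts and the comparison of places were also added after the tables had been seen. Alternatives were other overlaps, the more significant peaks, each replicate alone, and other summaries of fold and start. Tables were made in Python 3.11.15 with pandas 2.3.3 and numpy 2.4.6, with intervals from scipy 1.17.1 and figures in matplotlib 3.10.9.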

Additional observations from a re-analysis of the deposited data

How the results depend on the processing

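The order of the chromosome groups in coverage held under every alternative run, but the size of the difference did not. It ran from -11.4 points with a peak in either replicate to -2.12 with a fold of at least 4 in both (5 and 11 genes). The more significant peaks of each table gave -2.52 (4 and 11 genes). Replicate 1 alone gave -8.28 and replicate 2 alone -9.70. No interval was computed for these settings, so a separation of the groups under them was not shown. The difference in fold between chromosome groups (0.40 log2) was unstable in size: 1.00 with 50% reciprocal overlap, 0.82 when each table was limited to its more significant peaks, 1.33 with the strongest peak of each gene, 1.03 without the weaker ZNF787 peak, and 0.045 to 0.31 with a replicate left out. The more significant peaks gave 20 shared ZNF peaks on 15 genes, a median fold of 8.49 (5.57 before) and 1 peak at the gene start. With a replicate left out, all peaks of the other gave 61 to 78 peaks, 49 to 59 genes, a median fold of 4.48 to 6.57 and 9 to 12 peaks at the start. A fold of at least 4 in both left 16 genes, and a peak in either replicate gave 76. Peaks at the start rose from 5 to 8 within 500 nt and to 9 by the nearest block edge, and fell to 4 with 50% reciprocal overlap. No paired analysis was possible because peaks carry no values for the input and IP libraries apart. Depth is unknown. The settings without the weaker ZNF787 peak and with a peak in either replicate were chosen after seeing the data.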

Other observations

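Promoter composition was set beside the presence of a peak. Of the 517 ZNF genes, 437 (84.5%) had an entry in the RefSeq promoter table, which covers 250 bases before and 50 after a start. The median G and C content of that window was 69.3% for the 21 such ZNF genes with a shared peak (range 45.0 to 84.3) and 60.7% for those with no peak. On chromosome 19 it was 72.3% for 4 genes with a shared peak, from 68.7 to 76.3, and 59.0% for those with none. The other protein-coding genes of chromosome 19, of which 80.4% have an entry, stood the same way, at 68.2% with a shared peak and 62.3% with none, so the contrast is not particular to ZNF genes. Over all protein-coding genes 79.0% have an entry, and no value is given. These are descriptions across genes with no test.

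Some folds recur exactly. In the replicate 1 table a value of 18.5 was common, and 3 of the 7 ZNF peaks at or above it (42.9%), on ZNF444, ZNF507 and ZNF704, were whole multiples of it (within 0.05), beside 134 of 253 of all peaks (53.0%). None of these 3 peaks was shared. For 10, a common value of the replicate 2 table, 0 of 11 ZNF peaks at or above it were whole multiples, beside 148 of 509 of all peaks (29.1%). Annotated spans of other genes also covered 5 of 61 ZNF peaks in replicate 1 and 14 of 78 in replicate 2. Among these were ZNF580, whose peak also lies in the span of ZNF581, and ZNF219, where TMEM253 lies on the other strand.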
